A study of Mus musculus with 18 samples.

Results

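The cytosolic ribosomal protein genes were taken as every protein-coding row of the count table whose symbol is Rpl or Rps followed by a digit, together with Rplp0, Rplp1, Rplp2 and Rpsa. Ribosomal S6 kinase genes, symbols with "-ps" and Gm pseudogenes were left out. The rule gave 86 genes of the 56953 gene IDs in the table. They comprise 46 genes of the large (60S) subunit, 31 of the small (40S) subunit and 9 others that are paralogs of a subunit gene or only share the name. Fau and Rack1, which also encode ribosomal proteins, have other symbols and are not members. Another 7 rows had a matching symbol but no protein-coding annotation and were left out too.

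RNA came from mouse bone marrow-derived macrophages, differentiated in medium with L929 cell supernatant, and each of 6 groups held 3 libraries. The T169A groups carry the RIPK1 T169A allele, a change at a threonine of the kinase RIPK1 that acts in cell death and inflammation, and the B6 groups are C57BL/6J. The labels do not say whether T169A cells were homozygous, and a point change cannot be checked from gene counts. Cells of each genotype received LPS/5z7 for 2 h, LPS for 2 h, or no stimulus (unstim). LPS (lipopolysaccharide) is a bacterial ligand of the receptor TLR4. The labels do not spell out 5z7, a common abbreviation of (5Z)-7-oxozeaenol, which inhibits the kinase TAK1. Whether a group's 3 libraries stand for different animals or cultures is not given in the sources used here; the p-values then measure the spread between these libraries, which may be technical. The sample titles carry letters, A to C in B6 and D to F in T169A. Each letter occurs once in every treatment of its genotype. The labels do not say what a letter stands for, and the count columns carry none. The treatment tests therefore take the groups as independent and leave this matching out.

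Each ribosome carries one copy of nearly every ribosomal protein, and cells make these proteins in matched amounts. Their mRNAs are short and abundant and start with a 5' terminal oligopyrimidine (TOP) tract, a C followed by a run of pyrimidines, through which mTORC1 and the binding protein LARP1 set how well they are translated. A change in translation alone leaves the mRNA level as it is, and an RNA count does not see it. In mammals several of these proteins also act outside the ribosome, for example RPL5 and RPL11 as inhibitors of MDM2.

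The promoter and start of a few members are shown because the TOP tract is the feature the family shares at its start. RefSeq promoter windows on GRCm38.p6 were found for 66 of the 86 members. Each sequence below runs 5' to 3' on the gene's strand from 48 bases before the annotated start to 12 bases after the start of transcription, and capitals mark a C at the first transcribed base with the pyrimidines that follow it. Rps6 encodes the 40S protein phosphorylated by S6 kinases, Rplp2 a stalk protein, Rps27 a zinc finger protein of the 40S subunit, Rpl38 a 60S protein, and Rps10 a 40S protein. Rpl13a, which encodes a 60S protein, has no such tract at its listed start, but a run of C and T begins within the 12 bases after it.
Rps6, chr4:86857356-86857415, minus strand: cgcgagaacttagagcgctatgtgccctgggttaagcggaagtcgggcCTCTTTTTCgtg
Rplp2, chr7:141447603-141447662, plus strand: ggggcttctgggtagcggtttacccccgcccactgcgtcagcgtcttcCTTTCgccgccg
Rps27, chr3:90213637-90213696, minus strand: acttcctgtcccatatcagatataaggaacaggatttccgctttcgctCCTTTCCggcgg
Rpl38, chr11:114668532-114668591, plus strand: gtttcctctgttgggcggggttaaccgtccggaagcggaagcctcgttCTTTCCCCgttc
Rps10, chr17:27635233-27635292, minus strand: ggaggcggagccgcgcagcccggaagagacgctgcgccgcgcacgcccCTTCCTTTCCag
Rpl13a, chr7:45128734-45128793, minus strand: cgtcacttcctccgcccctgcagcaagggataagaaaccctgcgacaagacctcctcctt

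A C at the annotated start followed by at least 4 pyrimidines stood in 14 of the 66 members (21.2%) and in 3.01% of the 27025 genes with a window. This share counts only exact annotated starts, so a start listed a few bases off has no match. The letters CCGGAA, the core bound by ETS factors such as GABP, stood on either strand of the window from 250 bases before to 50 bases after the start in 54.5% of the members and 16.7% of all genes. ATGGCG, a core of YY1 sites, stood in 31.8% of the members and 10.2% of all genes. GGGCGG, an SP1 core, stood in 62.1% and 38.2%, and TATAAA in 10.6% and 15.7%. A match is a description of the letters and not a bound site.

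Of the 86 members, 84 passed the filter on low counts that left 13068 genes. All 77 subunit genes passed, and the 2 members that did not were Rpl10l, a paralog of Rpl10 with 0 counts in all 18 libraries, and Rpl3l, a paralog of Rpl3 that is typical of striated muscle, with 14 counts in all. A count of 0 allows up to 3 counts per library, or 0.205 CPM (counts scaled to a library total of 1e6) in the shallowest library and 0.0986 CPM in the deepest, for counting error only. Levels below are CPM after TMM scaling, which sets libraries to a common level of the typical gene. Of the members, 68 averaged at least 100 CPM over the 18 libraries and 7 averaged under 5 CPM. Per kilobase of transcript, the highest were Rps29 (1192 CPM per kb), Rplp1 (1155) and Rps24 (789), which encode a 40S, a stalk and a 40S protein. The lowest of those that passed were Rpl36al (0.630 CPM per kb), Rpl39l (0.708) and Rpl24 (1.08).

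Summed over the members, T169A macrophages held 22552 ± 2966 CPM with LPS, against 17260 ± 958 CPM unstimulated (SD, n = 3 each). The LPS libraries 11, 14 and 17 had 19387, 23002 and 25267 CPM, and the unstimulated libraries 10, 13 and 16 had 16789, 16628 and 18362 CPM, so the groups do not overlap. With LPS/5z7, libraries 12, 15 and 18 had 20805, 21702 and 22604 CPM, also all above the unstimulated ones. In B6 the sums were 21320 ± 2395 CPM with LPS and 20476 ± 6932 CPM unstimulated. That spread comes from library 7: the unstimulated B6 libraries 1, 4 and 7 had 15998, 16970 and 28461 CPM, and the last is the highest of all 18. The LPS libraries 2, 5 and 8 lie between them, at 18973, 21228 and 23760 CPM, and the B6 LPS/5z7 libraries 3, 6 and 9 at 20342, 20238 and 18907 CPM.

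As a share of all counts the means were lower with LPS in both genotypes. The members took 1.61%, 1.98% and 2.17% of the counts of the T169A LPS libraries, against 2.10%, 2.13% and 2.35% of the unstimulated ones, and these overlap. In B6 they took 1.58%, 1.77% and 1.98% with LPS, against 2.01%, 2.10% and, in library 7, 3.61% unstimulated, and these do not. The 886 genes that rose by at least 2 on the log2 scale with LPS in T169A cells took 22.2% to 23.2% of the counts of the LPS libraries and 2.89% to 3.50% of those of the unstimulated ones, and this space comes out of the share of every other gene. TMM factors were 0.830 to 0.860 for T169A LPS and 1.25 to 1.28 for T169A unstim. A higher CPM below therefore means higher relative to the typical gene of the cell and not more of the library, and it does not give mRNA per cell.

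**Figure D1:**
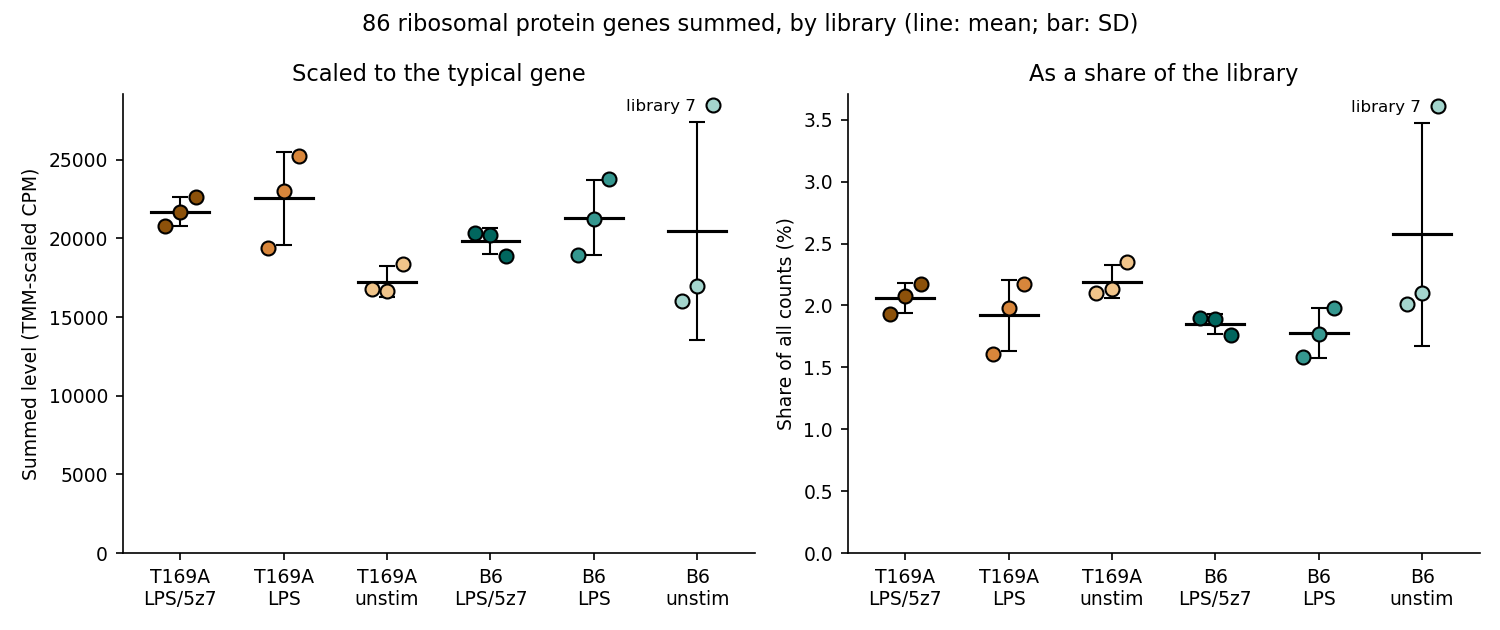
Summed level of the 86 ribosomal protein genes in each of the 18 libraries, in TMM-scaled CPM (left) and as a percentage of all counts (right); points are libraries, lines means and bars SD of 3 libraries. On the left the T169A LPS and LPS/5z7 libraries lie above the unstimulated ones, on the right T169A LPS averages 1.92% against 2.19%, and library 7 stands above all others in both.

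Library 7 stood apart across the family. All 84 tested members were higher in it than the mean of libraries 1 and 4, with a median of 0.82 on the log2 scale, while the median over all tested genes was -0.03. For 72 of the 84 it was the highest of the 18 libraries. It was also the shallowest, with 14645076 counts, where the deepest library had 30425934, and mitochondrially encoded genes took 1.21% of its counts, against 1.59% and 1.56% in libraries 1 and 4. Transcript length moved with the difference: across the 12811 tested genes with a length, the Spearman correlation of length with the difference of library 7 from its group was -0.54. The members are short, with a median of 704 bases against 2064 for the other tested genes. The 27 members of 500 to 700 bases were higher in library 7 by a median of 0.85 and other genes of that length by 0.27, and other genes of at least 4000 bases were lower by 0.52 (median -0.52). Outside the unstimulated B6 group the relation was smaller: in the 4 libraries whose correlation with length was -0.2 or below the members' median lay above their group mates, and in the 3 at 0.2 or above it lay below. For B6 against unstimulated cells, counts over the members and gene lists, and named members whose call turns, are therefore given with and without library 7. All groups share the estimate of the spread, so library 7 also enters the standard errors and calls in T169A. For Rps6 in T169A against B6 unstimulated, the SE was 0.17 with it and 0.12 without it. T169A values below have library 7 in the fit unless stated, so their SE and calls are not on a par with B6 values without it.

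**Figure D2:**
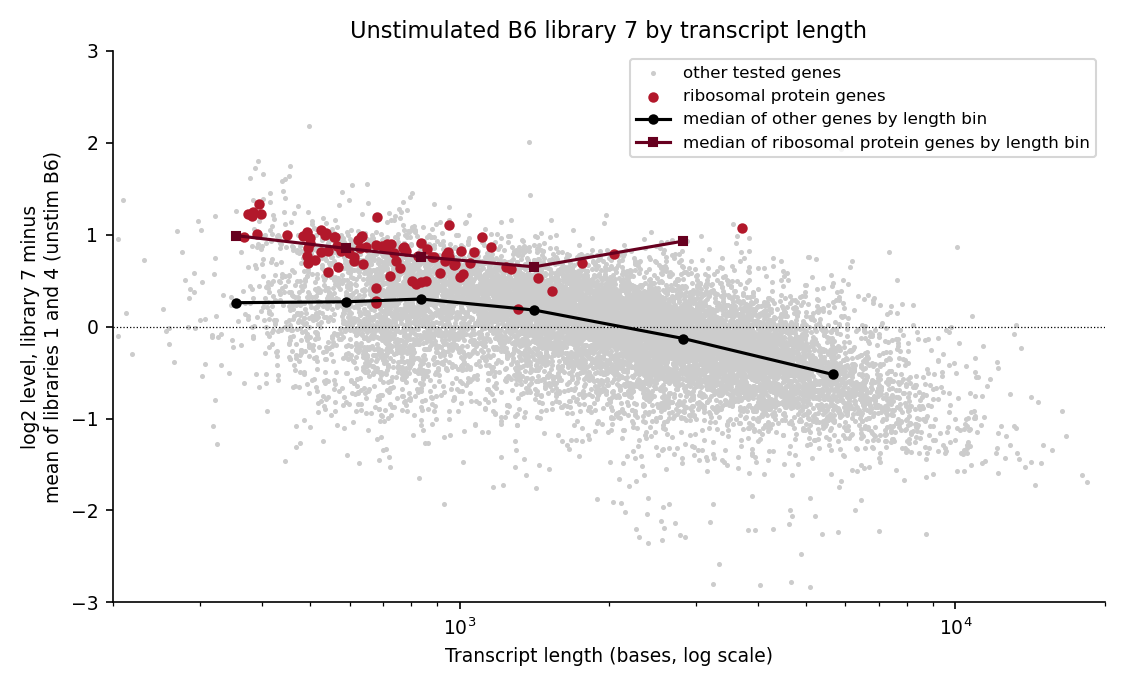
Difference of unstimulated B6 library 7 from the mean of libraries 1 and 4, on the log2(CPM + 0.5) scale, against transcript length for 12811 tested genes; red points are ribosomal protein genes, lines join medians by length bin, and 40 values lie outside the axes. The members lie above 0 and above other genes of their length, at medians of 0.99 against 0.26 below 500 bases, and the other genes fall below 0 from 2000 bases.

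LPS for 2 h left the ribosomal protein mRNAs close to the typical gene or moderately above it, in a transcriptome where most genes changed. In T169A cells 34 of 84 members rose and 0 fell, at a median log2 fold change of 0.40, against -0.03 over all genes; scaled by library size alone, 1 member was called higher and 4 lower. In B6 cells 2 of 84 rose and 0 fell with all libraries, and 62 rose and 0 fell without library 7, while library size alone gave 1 higher and 74 lower. These counts used edgeR's quasi-likelihood test over all genes at an adjusted p of 0.05. Of all 13068 genes 30.3% were called higher and 31.5% lower in T169A cells, and 29.6% and 33.5% in B6 cells; without library 7 it was 31.1% of 13262 higher. The members' 34 are thus 40.5% of those tested, and their 2 in B6 are 2.38%.

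The members moved as a narrow band. In T169A cells the quartiles of their log2 fold changes with LPS lay at 0.32 and 0.45, while those of all genes ran from -0.63 to 0.48, and 83 of the 84 were positive. In all, 52 of the 84 were higher in every LPS library than in any unstimulated one, and 33.4% of all genes were. Of the 40S genes 16 of 31 rose (median 0.44), and of the 60S genes 16 of 46 (median 0.39). Under library size alone the median of the members in T169A cells moved to -0.18 and that of all genes to -0.61, and in B6 cells to -0.54 for the members and -0.66 for all genes. Relative to the median of all genes the members stood at 0.43 in T169A and 0.12 in B6 cells under either scaling, and at 0.42 in B6 without library 7.

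The T169A count rests on single libraries as well. Without LPS library 17 it was 7, without library 14 it was 17, and without the unstimulated libraries 10 and 13 it was 20 and 14. Fitting the 2 groups alone gave 62, and removing the trend with transcript length gave 64 in T169A and 23 in B6 cells. Of the 34 members called in T169A cells 31 were also called in B6 without library 7, which is 91.2% of the first list and 50% of the second. The second list holds 62 of the 84 members, so most of any 34 members would be shared. Library 7 is in the fit behind the first list and not in that behind the second, so their lengths are not on a par. Leaving out library 7, in which all tested members are high, also raises their fold changes in B6.

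**Figure D3:**
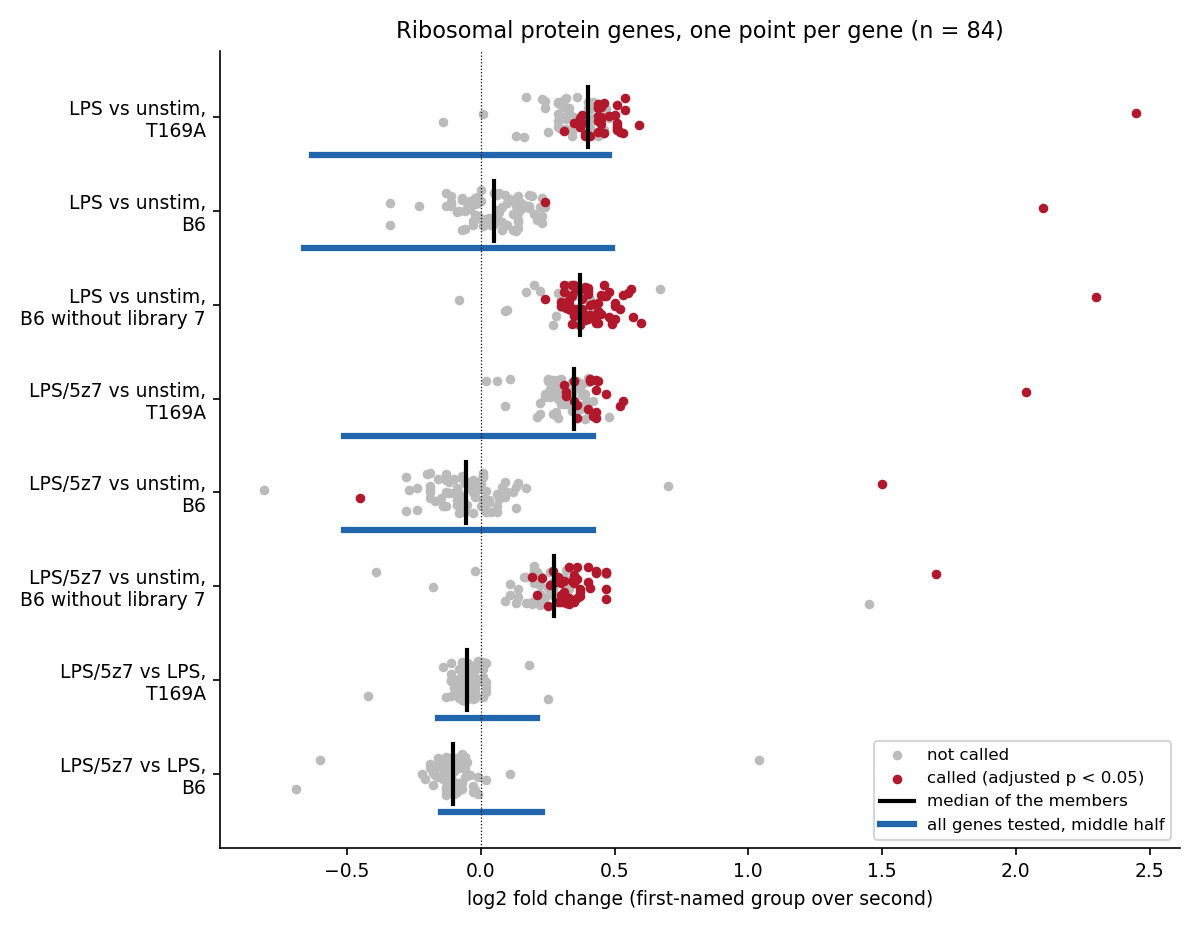
Log2 fold changes of 84 ribosomal protein genes in 8 comparisons, 1 point per gene; red points passed an adjusted p of 0.05 (edgeR), black ticks are medians and blue bars span the quartiles of all tested genes. The members form a narrow band, at 0.40 for LPS in T169A, 0.05 in B6 and 0.37 in B6 without library 7, and lie at -0.05 and -0.10 for LPS/5z7 against LPS.

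The stalk proteins, which recruit elongation factors to the ribosome, were among the most abundant members. Rplp0 had 639, 764 and 827 CPM in T169A LPS libraries, against 585, 540 and 601 CPM in T169A unstimulated libraries, and rose by 0.37 ± 0.13 on the log2 scale (SE, adjusted p = 0.0224 by edgeR). Rplp2 had 253, 274 and 315 CPM with LPS, against 191, 194 and 206 CPM unstimulated, and rose by 0.51 ± 0.20 (adjusted p = 0.0356). Rplp1 was at 479, 685 and 717 CPM, against 490, 501 and 552 CPM; these overlap, and its log2 fold change of 0.29 ± 0.22 did not pass. In B6 none of the 3 passed with library 7 in, at 0.20, 0.08 and -0.07 for Rplp0, Rplp2 and Rplp1. Without it Rplp0 rose by 0.38 ± 0.11 (adjusted p = 0.00612 by edgeR) and Rplp2 by 0.48 ± 0.12 (adjusted p = 0.00195), and Rplp1 stood at 0.33 ± 0.17 (adjusted p = 0.0962).

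Rpl5 and Rpl11 encode the proteins that enter the large subunit with 5S RNA. Rpl5 had 258, 285 and 300 CPM in T169A LPS libraries, against 222, 202 and 222 CPM unstimulated, and rose by 0.38 ± 0.12 (adjusted p = 0.0113). In B6 it had 273, 300 and 299 CPM with LPS, against 225, 231 and, in library 7, 329 CPM unstimulated. Without library 7 its log2 fold change in B6 was 0.35 ± 0.09 (adjusted p = 0.00166), and with it 0.15 ± 0.12 (adjusted p = 0.284). Rpl11 stood at 0.40 ± 0.18 in T169A (adjusted p = 0.0675) and at 0.39 ± 0.12 in B6 without library 7 (adjusted p = 0.00626), against 0.03 with it.

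Among the small subunit genes, Rps6 had 155, 191 and 223 CPM in T169A LPS libraries, against 134, 135 and 144 CPM unstimulated. It rose by 0.46 ± 0.17 (adjusted p = 0.0273) and its groups do not overlap. In B6 it had 149, 173 and 195 CPM with LPS, against 135, 133 and, in library 7, 227 CPM unstimulated, at 0.06 ± 0.17 with that library and 0.36 ± 0.12 without it (adjusted p = 0.0168). Rps25, whose protein serves initiation at some viral internal ribosome entry sites, rose by 0.51 ± 0.17 in T169A (adjusted p = 0.0162) and by 0.57 ± 0.11 in B6 without library 7 (adjusted p = 0.000179), where it stood at 0.24 with it. Rps27a, which encodes ubiquitin fused to a 40S protein, rose by 0.46 ± 0.18 in T169A (adjusted p = 0.0339), and in B6 by 0.43 ± 0.11 without library 7 (adjusted p = 0.00175) and not with it (0.06). Rps3, whose protein also binds NF-kB in human cells, stood at 0.36 ± 0.16 in T169A (adjusted p = 0.0654), and in B6 at 0.33 ± 0.11 without library 7 (adjusted p = 0.0111) and 0.04 with it. Rpsa, the laminin receptor protein, stood at 0.30 ± 0.16 in T169A (adjusted p = 0.113). In T169A the members called with the largest fold changes included Rpl24, Rps10, Rpl39 and Rpl21, and those called with the smallest were Rpl7l1, Rps2, Rplp0, Rpl10 and Rpl5, at 0.31 to 0.38.

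Rpl10a and Rpl3 were abundant and stood low in this band, and they are named here for that, after their values were seen. Rpl10a had 102, 172 and 178 CPM in T169A LPS libraries, against 129, 137 and 147 CPM unstimulated, a log2 fold change of 0.13 ± 0.27. Rpl3, a large subunit protein that reaches towards the peptidyl transferase centre, had 358, 399 and 448 CPM with LPS, against 351, 342 and 387 CPM, at 0.16 ± 0.11. Neither passed in any of the 6 treatment comparisons. Rpl38, a gene known in mice for its part in translating Hox mRNAs, lay in the band at 0.45 ± 0.20 in T169A (adjusted p = 0.0624), and in B6 at 0.36 ± 0.13 without library 7 (adjusted p = 0.0190) and -0.04 with it.

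**Figure D4:**
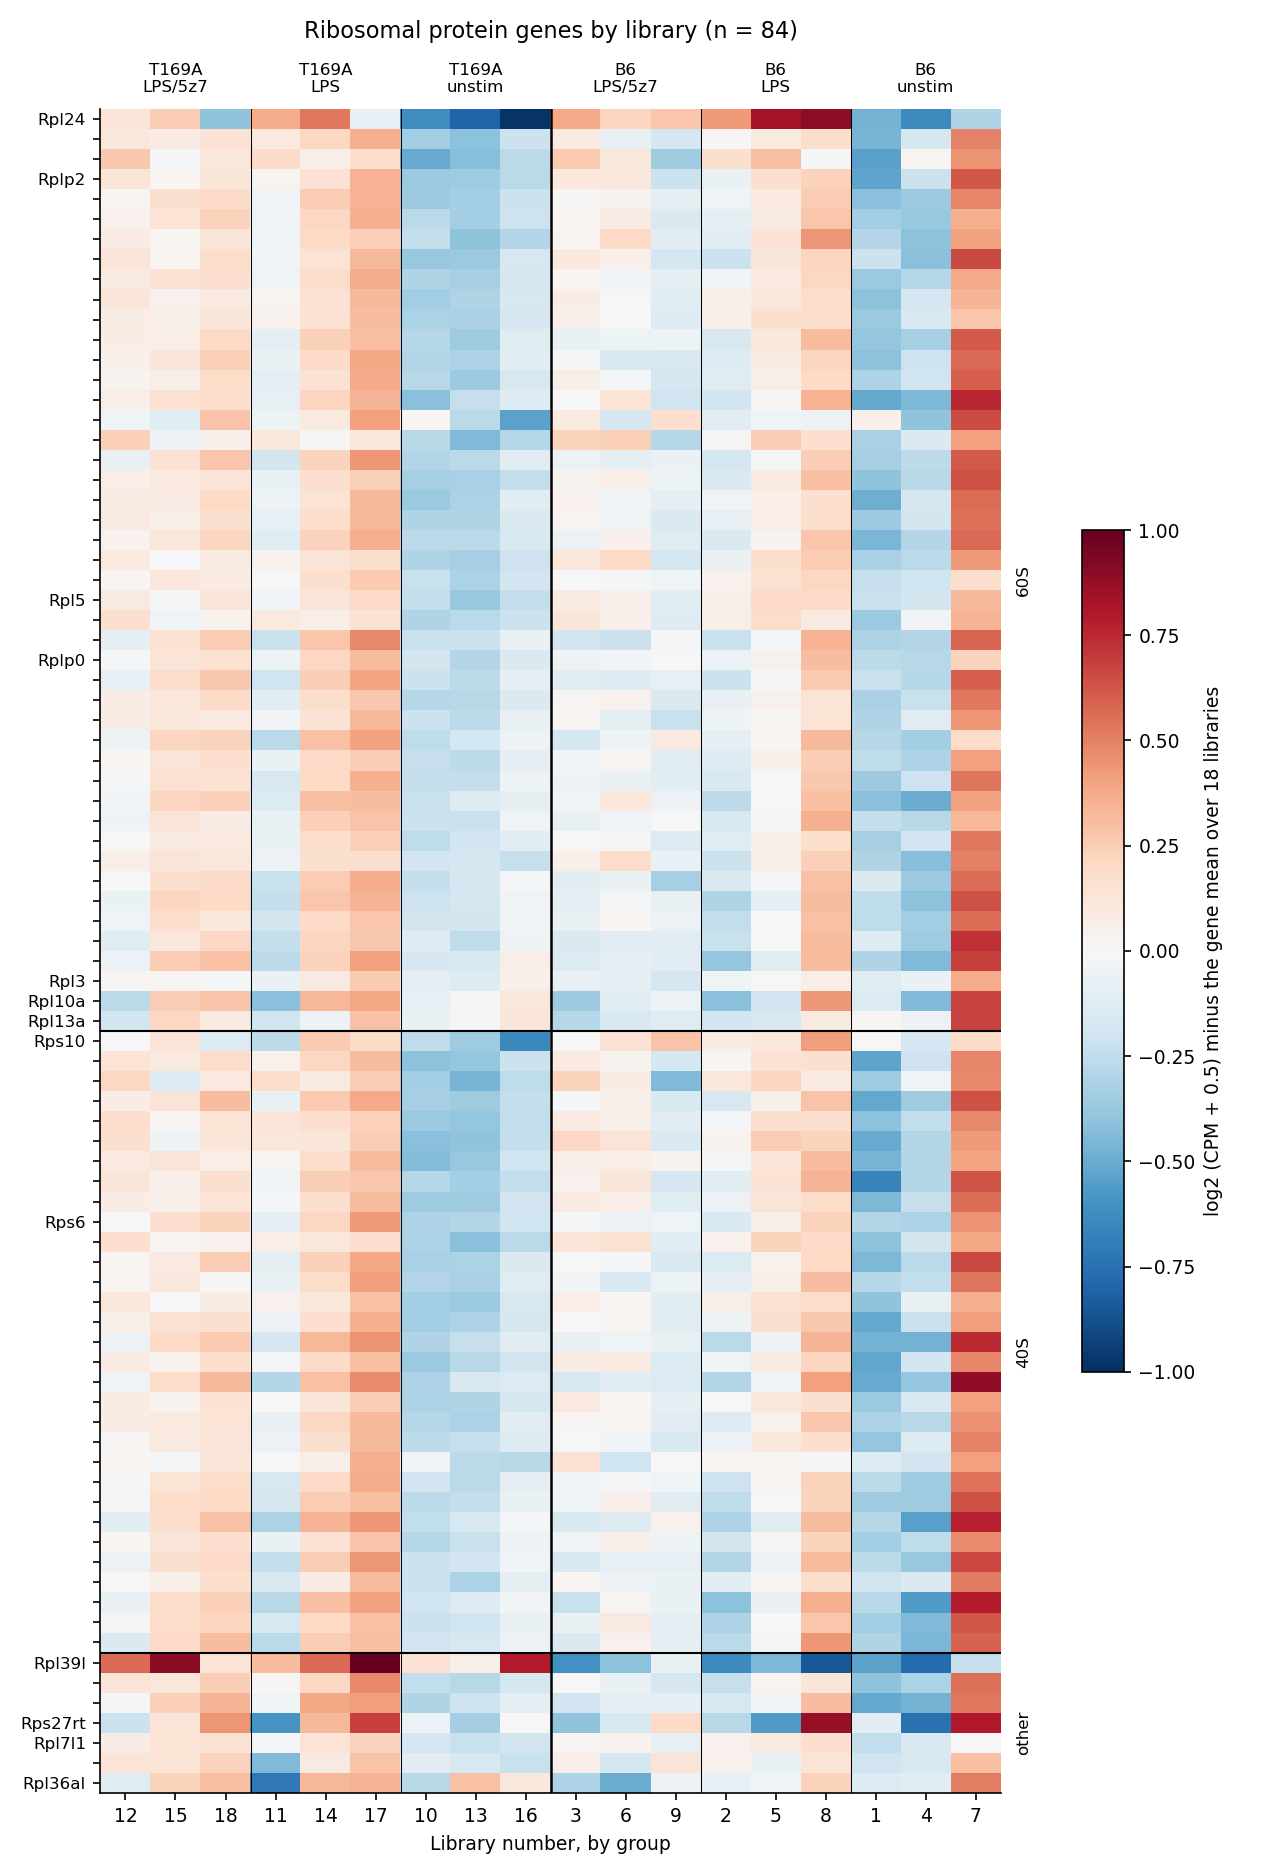
Log2(CPM + 0.5) of 84 ribosomal protein genes minus each gene's mean over 18 libraries; columns are libraries by group, rows are genes by subunit and then by fold change with LPS in T169A, colours saturate at 1 in either direction, and 13 genes are labelled. Most rows rise and fall together, unstimulated libraries other than library 7 are low, and Rpl24, Rpl39l, Rps27rt and Rpl36al depart from the band.

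The 79 members with at least 5 CPM were set against their length and base composition. Their log2 fold change with LPS in T169A cells had a Spearman correlation of -0.08 with transcript length and -0.32 with GC content, across genes that share the same libraries. Their difference in library 7 had one of -0.54 with length and 0.11 with GC content. The 14 tested members with a TOP tract at the annotated start had a median of 0.44, and 6 of them rose, while the 50 without one had a median of 0.38, and 19 rose. Among replicates the median coefficient of variation of these 79 genes was 14.2% in T169A LPS, 6.45% in T169A unstim, 12.2% in B6 LPS and 35.6% in B6 unstim.

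Adding 5z7 to LPS was not seen to change any member. Against LPS alone, 0 of 84 were called in T169A cells and 0 of 84 in B6 cells by edgeR, 0 in each had an unadjusted p below 0.05, and DESeq2 called 0. Over all genes 6.50% were called higher and 6.53% lower in T169A cells, and 7.03% and 6.79% in B6 cells. The members' medians were -0.05 in T169A and -0.10 in B6, with 10 and 3 of the 84 above 0, against 0.02 over all genes in each. The median standard error of a member was 0.18, so shifts of this size in single genes were not detectable. Rps6 had 165, 186 and 195 CPM in T169A LPS/5z7 libraries, against 155, 191 and 223 CPM in T169A LPS libraries, and Rplp2 had 269, 251 and 270 CPM, against 253, 274 and 315 CPM. In both genes the LPS/5z7 values lie within or close to the LPS range.

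Against unstimulated cells, LPS/5z7 gave 21 of 84 members higher and 0 lower in T169A cells (median 0.35), and these 21 are all among the 34 that rose with LPS; both comparisons share their unstimulated libraries. The 21 are 25% of the members tested, and over all genes 28.1% were called higher and 27.5% lower, so the share called higher was near that of all genes. In every LPS/5z7 library 67 of the 84 were higher than in any unstimulated one, and 34.8% of all genes were. The 21 rest on few libraries: it was 6, 2 and 12 without the unstimulated libraries 10, 13 and 16, and 3, 12 and 4 without the LPS/5z7 libraries 12, 15 and 18. Library size alone gave 1 higher and 1 lower. In B6 cells 1 rose (Rpl24) and 1 fell (Rpl13a), where 27.6% and 27.9% of all genes did, at a median of -0.06; library size alone gave 1 higher and 57 lower. Without library 7, 40 of 84 rose and 0 fell at a median of 0.28, where 28.7% of all genes rose. With all libraries 2 members in B6 with LPS and 1 with LPS/5z7 were higher in every treated library than in any unstimulated one, against 29.7% of all genes in each.

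No member was called between the genotypes in edgeR's test. T169A against B6 gave 0 of 84 called unstimulated, with LPS and with LPS/5z7, where 0.214%, 0.222% and 0.161% of all genes were called. Unadjusted p-values below 0.05 were found for 6, 1 and 1 members, and DESeq2 called 0, 1 (Rpl39l) and 0. The members' median was -0.26 between unstimulated cells, 0.08 with LPS and 0.14 with LPS/5z7. The first of these becomes 0.07 without library 7. With the trend with transcript length removed and all libraries in, the medians unstimulated, with LPS and with LPS/5z7 become -0.20, -0.01 and 0.05. With the GC trend removed as well they become -0.20, -0.02 and 0.02. With LPS/5z7, 30 of 84 members were higher in every T169A library than in any B6 library, and 10.8% of all genes were. Unstimulated and with LPS it was 1 of 84 each (Rpl39l), against 4.36% and 5.26% of all genes. Counts by library used CPM with both trends left in. The effect of LPS in T169A minus that in B6 had a median of 0.35 over the members with library 7 and 0.01 without it. No member was called for the difference of the LPS effect, of the LPS/5z7 effect or of adding 5z7 to LPS; 0% of all genes were in each, 1, 0 and 0 members had an unadjusted p below 0.05, and DESeq2 called 0 members.

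In GENCODE M21, 5 members overlap another annotated gene on the same strand, and 4 of them are among the 8 members with the lowest levels. Rpl24, a 60S protein at the contact with the 40S subunit, had 267 counts in all, Rps10 had 863, Rpl13a had 3879 and Rpl36al had 177, where the median member had 86908. Their overlapping genes, Gm28037, RPS10-NUDT3, Gm45713 and Gm49383, had 0, 0, 0 and 2 counts. Rpl19 overlaps Gm11629 and was not low, with 95067 counts. The counting options are not given in the sources used here, and the part of this overlap in the low counts was not tested.

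Rpl24 was the member with the largest log2 fold change with LPS in both genotypes. It had 0.981, 1.15 and 0.582 CPM in T169A LPS libraries, against 0.247, 0.157 and 0.0816 CPM unstimulated, and rose by 2.45 ± 0.43 on the log2 scale (adjusted p = 8.21e-05). In B6 it had 1.04, 1.54 and 1.63 CPM with LPS, against 0.327, 0.236 and 0.430 CPM unstimulated, and rose by 2.10 ± 0.35 (adjusted p = 6.02e-05), or by 2.30 ± 0.40 without library 7. Neither pair of groups overlaps, and it was called in every alternative in which it was tested, scaling by library size alone included. These values rest on 9 to 39 counts per LPS library and 2 to 8 per unstimulated library, and which stretch of the gene they come from is not known here.

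Rps10, which encodes a 40S protein, had 1.80, 2.81 and 2.65 CPM in T169A LPS libraries, against 1.81, 1.65 and 1.26 CPM unstimulated. Its log2 fold change was 0.59 ± 0.21 (adjusted p = 0.0212) although library 11 lies within the unstimulated range, and it was called in 9 of 15 alternatives. Rpl13a, part of the interferon-induced GAIT complex in human monocytes, had 8.14, 8.88 and 9.15 CPM in B6 LPS/5z7 libraries, against 10.1, 9.60 and 16.3 CPM in B6 unstimulated libraries. It fell by 0.45 on the log2 scale (SE 0.18, adjusted p = 0.0465), and without library 7 its log2 fold change was -0.18 ± 0.15 (adjusted p = 0.315); it was called in 10 of 16 alternatives. Its log2 fold change with LPS in T169A was 0.01 ± 0.18.

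**Figure D5:**
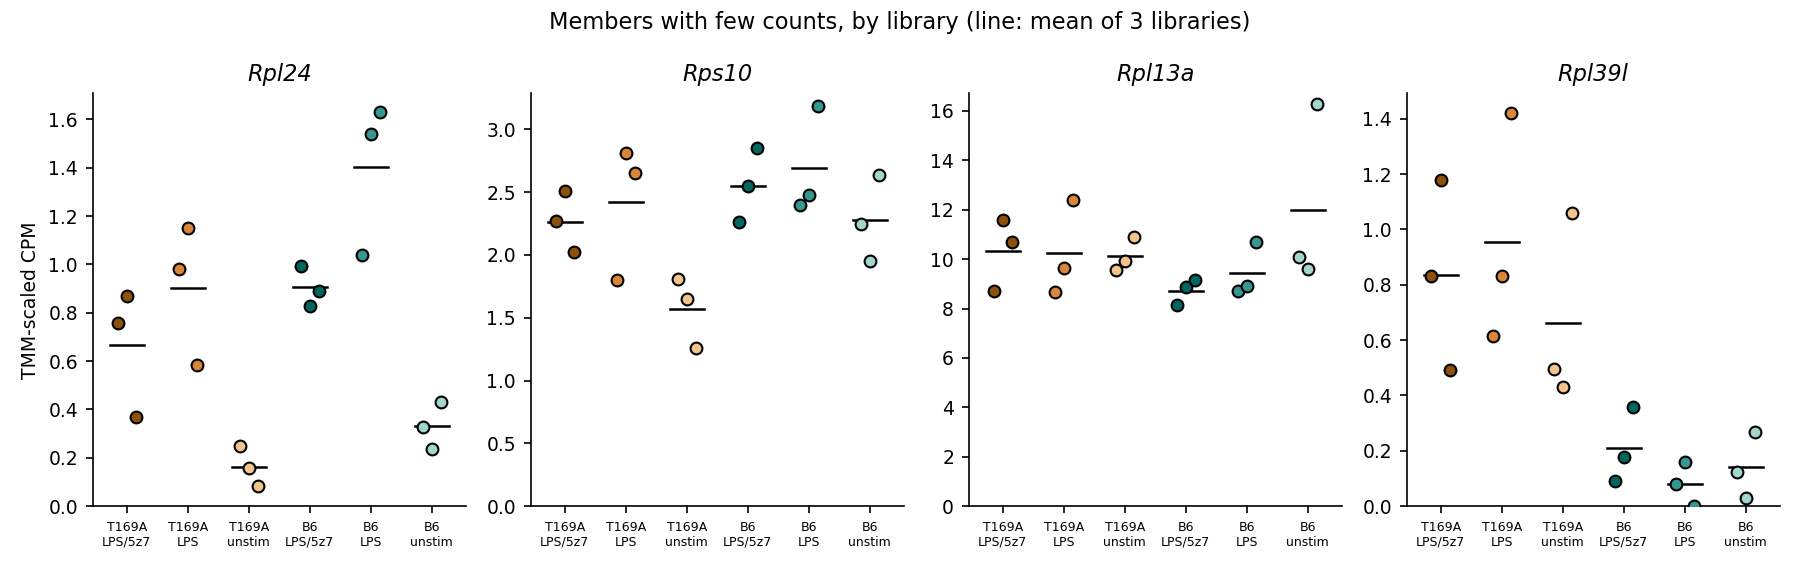
TMM-scaled CPM of 4 members with few counts in each of the 18 libraries, with the mean of 3 libraries as a line. Rpl24 is higher in all LPS than in all unstimulated libraries of either genotype, Rpl13a is high in B6 unstimulated library 7 at 16.3 CPM, and Rpl39l is higher in all 9 T169A than in all 9 B6 libraries.

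Rpl39l, a paralog of Rpl39 with a role in mouse male germ cells, was the member that differed most between genotypes. It had 0.613, 0.830 and 1.42 CPM in T169A LPS libraries, against 0.0800, 0.158 and 0 CPM in B6 LPS libraries, a fitted log2 fold change of 3.22 ± 0.70 (unadjusted p = 0.000274, adjusted p = 0.102). Unstimulated it had 0.495, 0.432 and 1.06 CPM in T169A, against 0.123, 0.0295 and 0.269 CPM in B6 (2.41 ± 0.65, adjusted p = 0.305). With LPS/5z7 it had 0.832, 1.18 and 0.490 CPM in T169A, against 0.0905, 0.178 and 0.357 CPM in B6 (2.06 ± 0.63, adjusted p = 0.485). All 9 T169A libraries lie above all 9 B6 libraries in CPM, with 152 counts against 26 summed. The call depends on the test: DESeq2 gave an adjusted p of 0.0102 with LPS, and the edgeR fit without a filter called it with LPS and unstimulated. It was called in 2 of 15 alternatives with LPS, in 1 of 16 unstimulated and in 0 of 14 with LPS/5z7. All 50-base stretches of its protein-coding transcript of median length occur in no other annotated gene. Its parent Rpl39 had 90.1, 82.2 and 89.0 CPM in T169A LPS libraries, against 88.0, 96.9 and 78.0 CPM in B6 LPS libraries, and these overlap.

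Rpl7l1, a nucleolar relative of Rpl7 that acts in 60S assembly, had 91.2, 102 and 108 CPM in T169A LPS libraries, against 81.8, 79.1 and 81.3 CPM unstimulated, and rose by 0.31 ± 0.08 (adjusted p = 0.00262). In B6 it had 95.4, 98.8 and 104 CPM with LPS, against 77.8, 83.2 and 92.1 CPM unstimulated, and rose by 0.24 ± 0.08 (adjusted p = 0.0165 by edgeR). Without library 7 it rose by 0.30 ± 0.08 (adjusted p = 0.00211 by edgeR). Of 16 alternatives for LPS in B6 it was called higher in 11 and lower in 1. Its parent Rpl7 had 464, 501 and 504 CPM in B6 LPS libraries, against 347, 403 and, in library 7, 543 CPM unstimulated, and stood at 0.18 ± 0.13 with library 7 (adjusted p = 0.214) and 0.39 ± 0.09 without it (adjusted p = 0.00147). In T169A Rpl7 stood at 0.44 ± 0.13 (adjusted p = 0.00572). Scaled by library size alone, Rpl7l1 had log2 fold changes of -0.27 in T169A and -0.36 in B6, and was called lower in each. Rps27l, a p53 target, rose by 0.48 ± 0.19 in T169A (adjusted p = 0.0345), and its parent Rps27 stood at 0.44 ± 0.26 (adjusted p = 0.146). In B6 without library 7 Rps27l rose by 0.34 and Rps27 by 0.50, and with it they stood at -0.03 each. Rpl22l1 stood at 0.47 ± 0.22 beside Rpl22 at 0.30 ± 0.16 in T169A, and neither passed. In B6 without library 7 both passed, at 0.55 and 0.30, and with it they stood at 0.13 and -0.01. Rps19bp1, a regulator of SIRT1 that is no ribosomal subunit, stood at 0.17 ± 0.16, Rps27rt at 0.43 ± 0.57, and Rpl36al at -0.14 ± 0.55 beside Rpl36a at 0.24 ± 0.22.

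Many members share sequence with processed pseudogenes, which are frequent for these genes. Stretches of 50 bases were taken from each member's protein-coding transcript of median length. In the median member 40.6% of them occur in no other annotated gene, in 53 of 86 it is less than 50%, and in 4 it is all of them. How reads that match several genes were counted is not given in the sources used here, so levels of such members are uncertain. The 300 annotated pseudogene symbols with "-ps" summed to 22.6 to 82.9 CPM per library, 24 were tested, and with LPS 0 rose and 1 fell in each genotype, and in B6 also without library 7.

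Genes around the ribosome were counted over lists chosen by role, and these lists, like the members, were chosen with earlier results known. Each list is to be read beside all genes, of which LPS raised 30.3% and lowered 31.5% in T169A cells, and 29.6% and 33.5% in B6 cells. With 5z7 added to LPS, 6.53% of all genes were called lower in T169A and 6.79% in B6 cells. Of 22 other genes with TOP mRNAs or a translation role, 17 rose and 1 fell with LPS in T169A cells (median 0.38), and 9 rose and 1 fell in B6 cells (median 0.19; 16 and 1 without library 7). Pabpc1, the poly(A)-binding protein, rose by 0.80 in T169A and 0.78 in B6 cells, and Eif4b, an initiation factor, fell by 0.27 and by 0.23. Fau, which encodes the 40S protein S30, stood at 0.47 and 0.04. Of 31 initiation factors 22 rose and 3 fell in T169A cells (median 0.50), and 19 rose and 3 fell in B6 cells (median 0.37; 22 and 3 without library 7, median 0.41). Eif4e, the cap-binding protein, rose by 1.65 ± 0.09 in each, and with 5z7 added to LPS it fell by 0.66 in T169A and 0.73 in B6 cells.

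Among ribosome assembly factors single genes rose by more than 2 on the log2 scale. Of 47 factors 34 rose and 1 fell in T169A cells (median 0.46), and 30 rose and 2 fell in B6 cells (median 0.40; 33 and 2 without library 7, median 0.46). The members' medians beside these are 0.40 in T169A, 0.05 in B6 and 0.37 in B6 without library 7, and the lists were not tested against each other. Sbds, which frees the 60S subunit of EIF6, had 323 ± 4.41 CPM in T169A LPS cells, against 51.7 ± 1.42 CPM unstimulated, and rose by 2.64 in T169A and 2.65 in B6 cells. Rrs1 and Rcl1, 60S and 40S assembly factors, rose by 2.60 and 2.83 in T169A and by 2.43 and 2.52 in B6 cells. With 5z7 added to LPS, 13 of the 47 fell in T169A and 11 in B6 cells, and 0 rose in either. Of 7 tested chaperones and partners of ribosomal proteins 4 rose in T169A and 3 in B6 cells, and 0 fell (4 and 1 in B6 without library 7).

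Of 20 genes of the mTORC1 and LARP list 6 rose and 5 fell in T169A cells, and 7 and 5 in B6 cells (6 and 7 without library 7). Over all genes 30.3% were called higher and 31.5% lower in T169A cells, so the list was near the share of all genes. Larp1, the TOP-binding protein, had 507 ± 86.5 CPM in T169A LPS cells, against 121 ± 9.71 CPM unstimulated, and rose by 2.07 in T169A and 2.16 in B6 cells. Eif4ebp2, a repressor of EIF4E, fell by 1.61 and by 1.38, and Mlst8, an mTORC1 subunit, by 1.44 and by 1.42. Of 11 factors that bind ribosomal protein promoters 3 rose and 3 fell in each genotype, with and without library 7. Gabpb1, a GABP subunit, rose by 1.16 in T169A and 1.13 in B6 cells, and Tbpl1, a TBP-like factor that acts at ribosomal protein promoters in flies, fell by 0.68 and by 0.88. Of 14 ribosome quality control genes 8 rose and 0 fell in T169A, and 9 rose and 1 fell in B6 cells (7 and 0 without library 7), with Rnf14, a ubiquitin ligase that acts at stalled ribosomes, at 1.25 and 1.28. Of 77 tested genes of the mitochondrial ribosome 18 rose and 13 fell in T169A cells (median 0.05), and 6 rose and 26 fell in B6 cells (median -0.21; 15 and 17 without library 7).

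The macrophage markers were present in every library, with 31480 to 41650 CPM summed over 8 genes. Neutrophil markers summed to 51.9 to 84.5 CPM in T169A LPS, 36.8 to 52.7 in T169A unstim, 50.6 to 62.8 in B6 LPS and 26.0 to 37.2 in B6 unstim, and 4 of 5 tested rose with LPS in T169A and 5 of 5 in B6 cells, with and without library 7. Their part in the members' levels was not tested. Fibroblast markers summed to 3.72 to 17.3 CPM, T cell markers to 2.55 to 5.67, dendritic cell markers to 0.163 to 3.13, and B cell, mast cell and erythroid markers to at most 0.158, 0.0452 and 0.0409 CPM. In bulk RNA, fewer cells of a type and less RNA per cell cannot be told apart.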

How the data were processed

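The authors deposited raw counts per gene for 18 libraries. The submitters' processing notes name GRCm39, featureCounts, STAR and Trim Galore without versions. GENCODE M21 (GRCm38) gave symbols for 52029 of 56953 gene IDs and the transcript lengths and GC content. Libraries are called by the number in their column name, which no label ties to a replicate letter. Counts were fitted with edgeR 4.0.16 (R 4.3.3): filterByExpr, TMM, 6 group means, robust quasi-likelihood F-tests of 12 comparisons, Benjamini-Hochberg adjustment over all genes tested, threshold 0.05. SE is the log2 fold change over the square root of F. The fit was also run on simulated counts with the same spread for every gene and changes in a single group. These had no outlying library and no length trend, so the run does not show how the fit handles either. Alternatives were DESeq2 1.42.0, other scalings and filters, length and GC trends, and each library left out. Pairs of replicates differed by 2.89 to 101 times counting variance. Named genes are fixed members by role, paralogs with their parents, and the largest and smallest called changes, 1 of which is not reported here. The members and lists were chosen with earlier results of these data known, and the trend with GC and the fit with both the length trend and library 7 removed were added after seeing them. Fold changes of low genes depend on edgeR's prior count. Figures used Python 3.11.15 and matplotlib 3.10.9.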

Additional observations from a re-analysis of the deposited data

How the results depend on the processing

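Scaling decides the direction of the LPS results. With library size alone LPS gave 1 member called higher and 4 called lower in T169A, and 1 and 74 in B6, while LPS/5z7 against unstimulated cells gave 1 and 1 in T169A, and 1 and 57 in B6. Under it, log2 fold changes with LPS in T169A turned to -0.21 for Rpl10, -0.04 for Rpl21, -0.04 for Rpl39, -0.20 for Rpl4, -0.20 for Rpl5, -0.14 for Rpl7, -0.27 for Rpl7l1, -0.21 for Rplp0, -0.07 for Rplp2, -0.14 for Rps18, -0.23 for Rps2, -0.07 for Rps24, -0.07 for Rps25, -0.12 for Rps27a, -0.10 for Rps27l, -0.19 for Rps4x and -0.12 for Rps6. With LPS/5z7 in T169A they turned to -0.11 for Rpl10, -0.11 for Rpl4, -0.07 for Rpl5, -0.07 for Rpl7, -0.10 for Rpl7l1, -0.08 for Rps18 and -0.07 for Rps4x, and with LPS in B6 to -0.36 for Rpl7l1. That scaling lowers every gene of the LPS libraries alike.

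Removing the length trend raised the members called higher with LPS to 23 in B6 and 64 in T169A, and with LPS/5z7 to 2 in B6 and 50 in T169A. Removing length and GC trends gave 35, 68, 10 and 58 in the same order. Removing the length trend and library 7 gave 72 with LPS and 51 with LPS/5z7 in B6, and 0 lower with LPS/5z7. Fitting only the groups compared gave 1 higher with LPS in B6, 62 in T169A, 76 with LPS/5z7 in T169A, and 0 lower with LPS/5z7 in B6. The cause of these shifts was not tested. Without a filter 1 member was higher with LPS in B6, and 1 differed between genotypes both unstimulated and with LPS. At a minimum of 1 CPM in 3 libraries 1 was higher with LPS and 0 with LPS/5z7 in B6. DESeq2 called 1 member between genotypes with LPS. Leaving out single libraries gave 1 to 62 higher and 0 to 2 lower with LPS in B6, 7 to 48 higher in T169A, 1 to 40 higher and 0 to 1 lower with LPS/5z7 in B6, and 2 to 12 higher in T169A. Without the 50 genes with the most counts the mean shares were 2.27% (B6 LPS), 2.34% (B6 LPS/5z7), 2.78% (T169A unstim), 2.47% (T169A LPS) and 2.63% (T169A LPS/5z7).

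Of the 295 alternative counts 248 stayed within 1.5 times the reported one. Many of these were 0 both as reported and in the alternative, so this number does not measure how stable the counts above 0 were. The counts called higher against unstimulated cells varied widely, as given above. Adding 5z7 to LPS gave 0 members called under every alternative run. No paired analysis was possible because the columns carry no replicate letter. Counts under about 10 per library limit Rpl24, Rpl36al and Rpl39l.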
